A study of Mus musculus with 11 samples.

Results

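Fibroblasts sorted from the mouse thymus 4 d after dexamethasone were set against fibroblasts from untreated mice, with 4 libraries in each group. These are 8 of the 11 libraries of the series, chosen by their labels and by the raw count columns that carry their names. The other 3, taken 18 h after dexamethasone, entered the same statistical fit. The 4 d group came from young male wild-type mice injected intraperitoneally with dexamethasone, a synthetic glucocorticoid, at 200 µg per 10 g body weight. The untreated group came from age-matched male wild-type mice, which are described as left untreated and not as injected with vehicle, so an effect of the drug and one of the injection cannot be told apart. No strain or exact age was found in the labels. Sample titles write 3 d where the time field, the descriptions and the treatment text write 4 d, the time used here. Thymi were dissociated with enzymes, and the labels give the sorted cells as negative for CD45 and CD31 and positive for CD34, PDGFRα and EpCAM. RNA was read with MARS-seq, which counts the 3′ ends of polyadenylated transcripts in bulk. The labels number replicates without tying each to an animal of its own, so the p-values measure the spread between libraries, which may be technical.

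Fibroblasts build the capsule, the septa and the vessel sheaths of the thymus, the organ in which T cells mature, and they supply its epithelium with growth factors and retinoic acid. Glucocorticoids kill immature thymocytes, so the organ shrinks and later regrows around a stroma that is less sensitive to the drug. Fibroblasts under inflammatory signals are known to secrete chemokines and to coat themselves with hyaluronan, a long sugar polymer spun at the cell surface from nucleotide sugars and cross-linked by secreted proteins.

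Library totals were 2647878, 2729207, 3357113 and 916281 counts in 4 d replicates 1 to 4, and between 1687549 and 2432295 in untreated libraries. Levels are given as CPM after TMM scaling of the library totals, which aligns libraries on the bulk of their genes. The limit that a count of 0 allows, 3 counts, stands for 1.0002 to 3.74 CPM in these libraries. The 4 d libraries were uneven in mesothelial transcripts, the products of the cells that line the outer surface of thoracic organs. Summed over the 14 tested markers of 16 listed, they reached 6756, 7249, 931 and 2723 CPM in 4 d replicates 1 to 4, against 7035, 6583, 8556 and 5159 CPM in untreated replicates 1 to 4. Replicates 1 and 2 at 4 d lay inside the range of the untreated libraries and replicates 3 and 4 below it. The defining markers Msln, Upk3b, Wt1 and Krt19 were well above 0 in every library, Msln at 1345, 1275, 108 and 414 CPM in 4 d replicates 1 to 4, against 1191, 899, 1256 and 886 CPM in untreated replicates 1 to 4. None of the 14 passed the gene test, their median log2 difference was -0.56, and it was 0.09 without 4 d replicates 3 and 4. An exact two-sided permutation test of the sums gave p = 0.286 (adjusted p = 0.464 over 13 marker sums), where 0.0286 is the smallest p that 4 against 4 libraries allow. Muc16 and Calb2, the other markers listed, were not analysed here.

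A second list, drawn up after values had been seen, split the 4 d libraries in the same place. Transcripts of MHC class II presentation, carried by dendritic cells, B cells and activated stroma, summed over 7 tested genes to 164, 344, 1197 and 1776 CPM in 4 d replicates 1 to 4, against 1106, 1029, 979 and 997 CPM in untreated replicates 1 to 4. The untreated libraries were close to each other, while 4 d replicates 1 and 2 lay below all of them and 3 and 4 above. Across all genes, deviations from the 4 d mean correlated at 0.38 between replicates 1 and 2, at -0.14 between replicates 3 and 4 and at -0.59 to -0.51 across these pairs, as a description of these libraries. Deviations from a mean of 4 correlate below 0 by construction. No marker sum of another cell type passed, the lowest exact permutation p being 0.0857 for Schwann cells (adjusted p = 0.464). With 13 sums and a smallest possible permutation p of 0.0286, a sum alone could not have passed after adjustment. These tests therefore cannot show that cell content was alike. In the sort genes, Cd34 read 963, 1011, 1303 and 1086 CPM at 4 d, against 825, 1134, 887 and 886 CPM in untreated libraries, and Pdgfra 80.8, 49.96, 154 and 117 CPM at 4 d, against 76.7, 105, 93.8 and 149 CPM in untreated libraries. Epcam, a positive sort marker by the labels, was at 1.09, 5.67, 2.0003 and 1.25 CPM at 4 d, against 10.4, 1.12, 0.713 and 0.378 CPM in untreated libraries, near the level of a few counts. Ptprc, which encodes CD45, and Pecam1, which encodes CD31, had 16 and 77 counts at 4 d, against 22 and 21 counts in untreated libraries. In bulk libraries fewer cells of a type and less RNA per cell cannot be told apart.

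**Figure D1:**
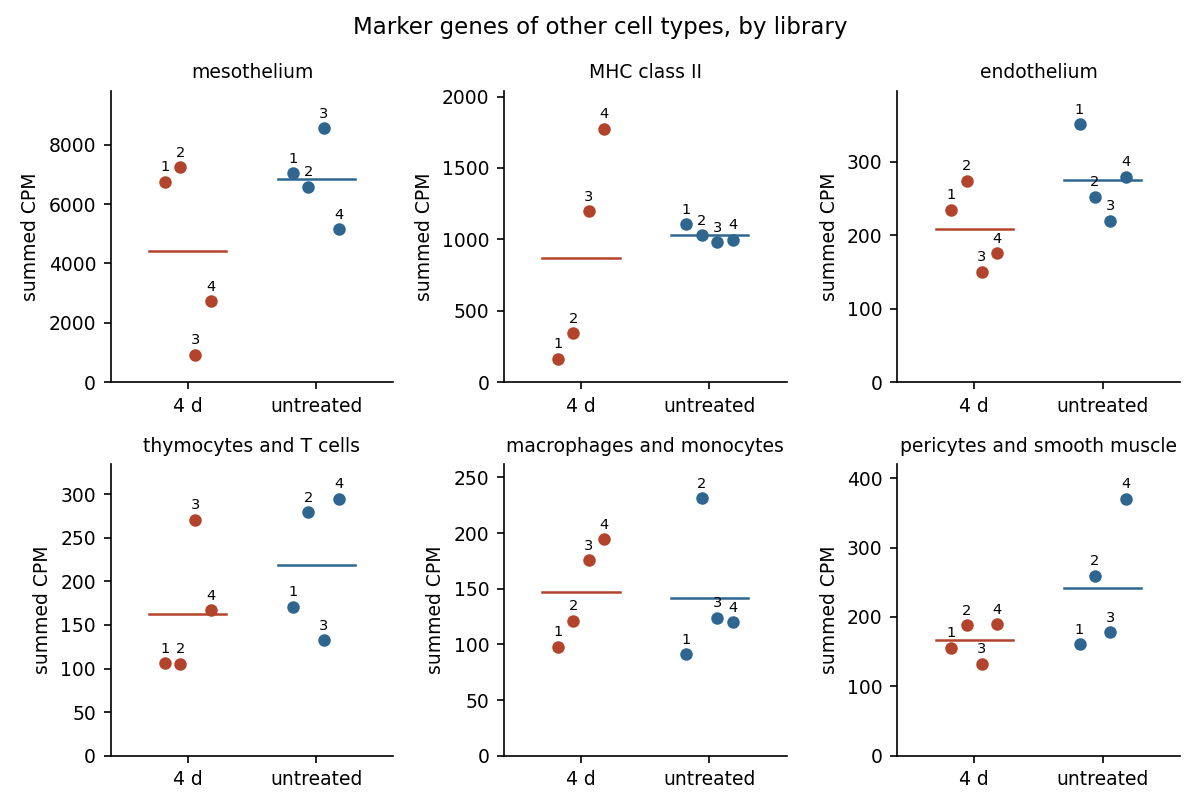
Summed CPM of marker genes of 5 other cell types and of MHC class II genes, for the 4 d libraries (red) and the untreated libraries (blue). Each point is 1 library with its replicate number and each line is a group mean. The mesothelial sum is 931 and 2723 CPM in 4 d replicates 3 and 4, and 5159 CPM or more in the other 6 libraries.

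Because of this unevenness, most counts of called list members are given under other fits too. One fit had the mean log2 CPM of the 14 mesothelial markers as a covariate, and another left out both 4 d replicates 3 and 4. The first keeps all libraries, and the second keeps only 4 d libraries whose mesothelial sum lies in the untreated range but leaves 2 of them.

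Of 12430 genes listed, 10067 passed a filter on low counts, and edgeR's quasi-likelihood test placed 250 of them (2.48%) higher and 83 (0.824%) lower, 3.31% in all, at 4 d than in untreated fibroblasts at a Benjamini-Hochberg adjusted p below 0.05. Every 4 d library lay above every untreated one for 812 genes (8.07% of those tested) and below for 660 (6.56%). Among the 250 higher genes the median log2 difference was 1.56, and it was 1.35 with the mesothelial covariate and 1.32 without 4 d replicates 3 and 4, where 249 were tested. Among the 83 lower genes these medians were -1.54, -1.44 and -1.40. All 333 kept their sign in both of these fits, in the second as far as tested. The groups did not overlap for 241 of the 250 and 81 of the 83, so leaving libraries out could hardly reverse a sign. The calls fell to 104 higher and 59 lower with the covariate, of which 103 and 28 were among the 250 and the 83. Without 4 d replicates 3 and 4 the calls were 29 higher and 18 lower, 28 and 6 of them among the same genes. With the covariate 63.8% of all calls were higher, against 75.1% in the fit without it. The highest level of the 250 higher genes was in 4 d replicate 3 for 155, in 4 d replicate 4 for 64 and in 4 d replicates 1 or 2 for 31. Their lowest level was in untreated replicate 3 for 166 and the highest untreated level in untreated replicate 1 for 122, so untreated libraries also spread. Leaving out 1 library at a time gave between 86 higher calls, without untreated replicate 3, and 324, without untreated replicate 1, and between 27 lower, without 4 d replicate 3 or untreated replicate 2, and 113. It gave 102 higher without 4 d replicate 3, 105 without untreated replicate 4, 125 without untreated replicate 2 and 160 without 4 d replicate 4, and 29, 30, 38, 41 and 45 lower without untreated replicates 3 and 4 and 4 d replicates 2, 1 and 4. In all 8 of these fits 91 genes were called, 76 higher and 15 lower, and 90 of them also with the covariate. The other calls were lost, or the gene went untested, in at least 1 of these fits. Counts in the gene lists below are to be read against 2.48% higher and 0.824% lower over all genes tested. Of all 10067 log2 differences 4676 were positive.

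**Figure D2:**
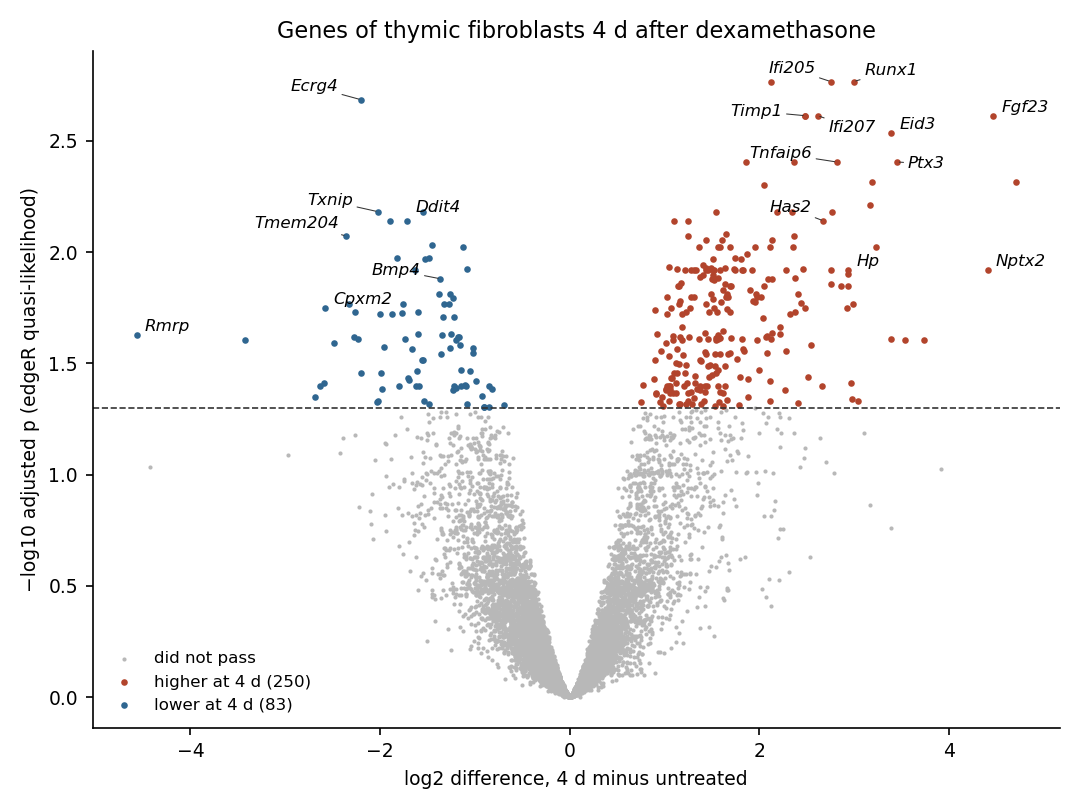
Log2 difference (4 d minus untreated, horizontal axis) and −log10 adjusted p (vertical axis) of the 10067 genes tested. Red points are the 250 genes higher at 4 d, blue points the 83 lower and grey points the rest. The dashed line marks an adjusted p of 0.05.

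Genes that make and cross-link hyaluronan were higher at 4 d. Has1 and Has2 encode enzymes that polymerise hyaluronan, Tnfaip6 encodes the enzyme that moves heavy chains onto it, and Ptx3 encodes a pentraxin that ties these chains together. Has2 (chromosome 15, 56665627 to 56694539, GRCm38, the build of all coordinates here) was at 58.2, 42.5, 70.3 and 41.1 CPM in 4 d replicates 1 to 4, against 9.32, 9.52, 2.497 and 12.5 CPM in untreated replicates 1 to 4. All 4 d libraries stood above all untreated ones, and untreated replicate 3 was the lowest. The log2 difference was 2.67 ± 0.43 (adjusted p = 0.00723), with 2.49 under the mesothelial covariate and 2.62 without 4 d replicates 3 and 4.

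Has1 (chromosome 17, 17843323 to 17855205) was the more abundant synthase transcript by 3′ counts, at 2408, 2061, 2969 and 2834 CPM in 4 d replicates 1 to 4, against 1083, 781, 283 and 560.5 CPM in untreated replicates 1 to 4. Untreated replicate 1 was the highest of its group and replicate 3 the lowest, and all stayed below the lowest 4 d library. Has1 differed by 1.92 ± 0.36 (adjusted p = 0.0120). Ptx3 (chromosome 3, 66219910 to 66225805) was at 1403, 1029, 2598 and 1360.3 CPM in 4 d replicates 1 to 4, against 287, 134, 41.4 and 122 CPM in untreated replicates 1 to 4. In log2 terms it differed by 3.45 ± 0.49 (adjusted p = 0.00393). Tnfaip6 (chromosome 2, 52038009 to 52056686) was at 1368, 1203, 2596 and 1824 CPM in 4 d replicates 1 to 4, against 359, 238, 92.7 and 304 CPM in untreated replicates 1 to 4. It differed by 2.81 ± 0.40 (adjusted p = 0.00393). For both genes 4 d replicate 3 was the highest library and untreated replicate 3 the lowest, and the groups did not overlap. With the covariate Ptx3 stood at 3.08 and Tnfaip6 at 2.46, both past the threshold.

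Of 10 tested hyaluronan genes 6 rose and 0 fell, where 2.48% of all genes tested rose, and their median log2 difference was 1.42, against -0.04 over all genes. The other 2 that rose were Cd44, the main hyaluronan receptor, at 1.78 ± 0.46 and Vcan, the hyaluronan-binding proteoglycan versican, at 1.06 ± 0.26. Cd44 lost its call without 4 d replicates 1, 2, 3 or 4 or untreated replicates 1, 2 or 3 (adjusted p up to 0.162), and Vcan without 4 d replicates 1, 2 or 3 or untreated replicates 1, 2, 3 or 4 (adjusted p up to 0.148). Without untreated replicate 4 the difference of Cd44 was 2.39. Hyal1 and Hyal2, which encode hyaluronan-cleaving enzymes, stood at -0.62 ± 0.31 and -0.72 ± 0.33 and did not pass. The count of higher members was 4 with the mesothelial covariate and 3 without both 4 d replicates 3 and 4.

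Enzymes that make the sugar donors of hyaluronan synthases rose too, in a list drawn up after values had been seen. Ugdh makes UDP-glucuronic acid and Uap1 makes UDP-N-acetylglucosamine, the building blocks of the polymer. Ugdh (chromosome 5, 65413221 to 65435949) was at 788, 829, 1427 and 811 CPM in 4 d replicates 1 to 4, against 223, 246, 94.2 and 137 CPM in untreated replicates 1 to 4. On the log2 scale it differed by 2.46 ± 0.45 (adjusted p = 0.0119). Uap1 (chromosome 1, 170141938 to 170174957) was at 754, 822, 1200.2 and 767 CPM in 4 d replicates 1 to 4, against 252, 178, 71.3 and 201 CPM in untreated replicates 1 to 4. It differed by 2.34 ± 0.36 (adjusted p = 0.00658). In both, 4 d replicate 3 stood above the other 4 d libraries, and all 4 d libraries stood above the untreated ones. Hk2, a hexokinase that feeds glucose into these routes and into glycolysis, differed by 2.76 ± 0.51 (adjusted p = 0.0120), and the glucose transporter gene Slc2a1 by 2.28 ± 0.42 (adjusted p = 0.0120). Without untreated replicate 1 the difference of Hk2 was 3.48. Gfpt2, at the entry of the hexosamine route, stood at 1.61 ± 0.42 and lost its call without 4 d replicates 1, 2, 3 or 4 or untreated replicates 2, 3 or 4 (adjusted p up to 0.145). Of 11 tested, 4 rose and 0 fell, with a median of 0.75, and the count was 3 with the mesothelial covariate and 1 without both 4 d replicates 3 and 4.

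**Figure D3:**
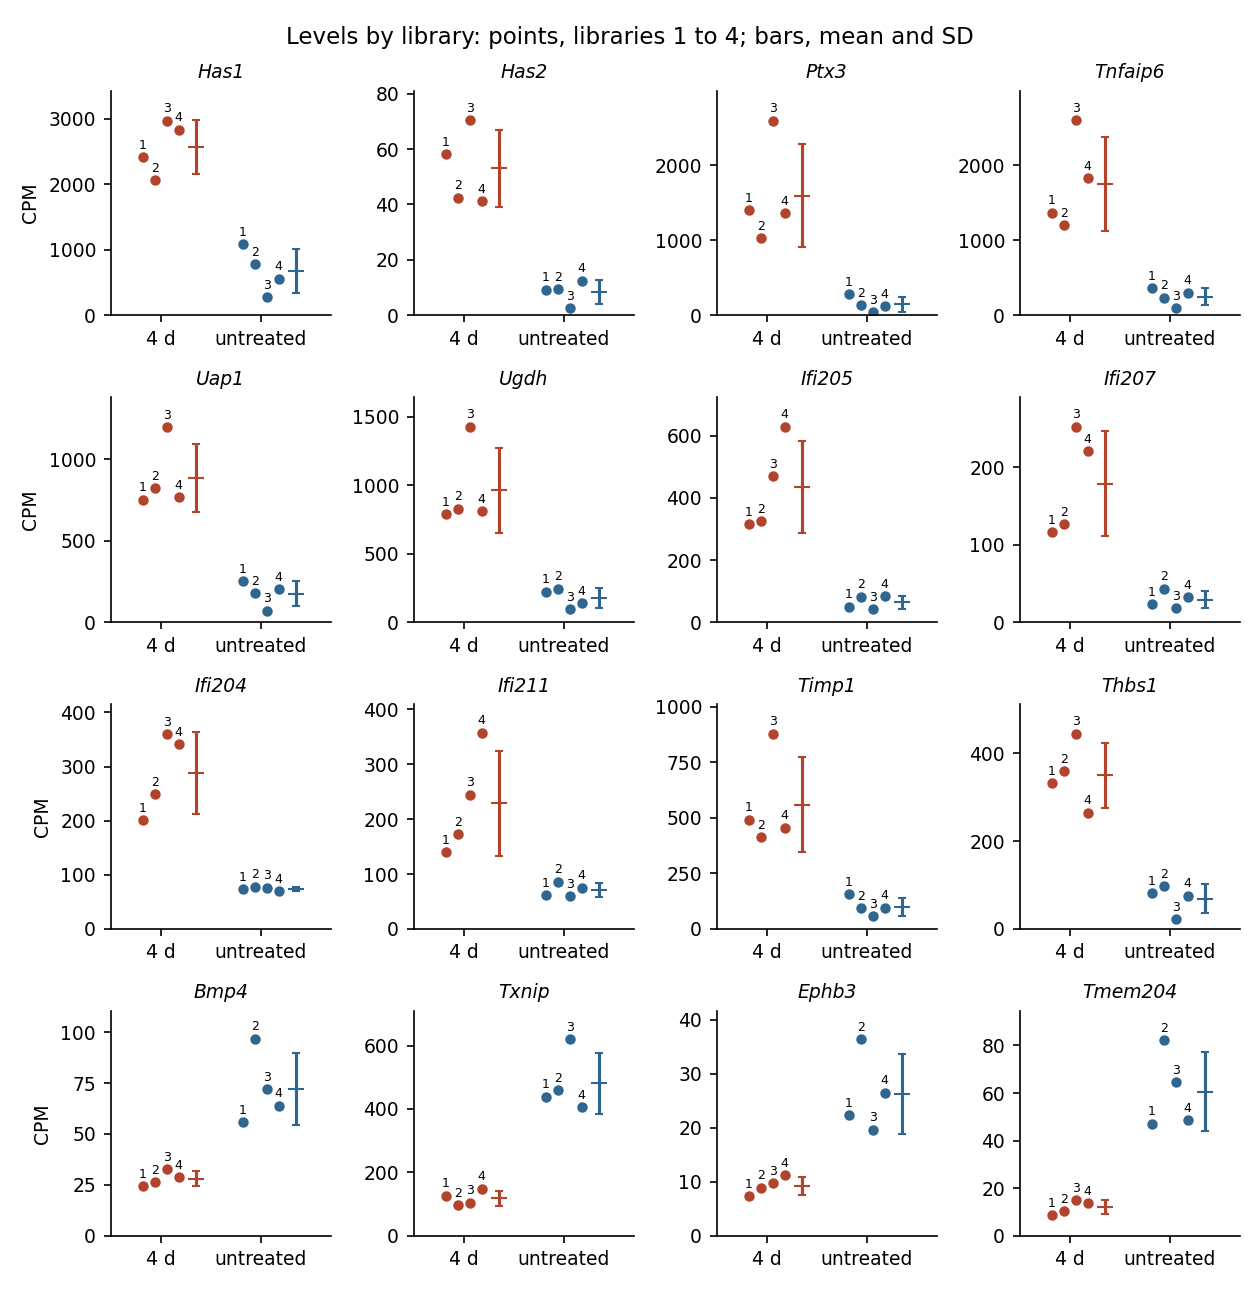
CPM (vertical axes, each from 0) of 16 genes in the 4 d libraries (red) and the untreated libraries (blue). Points are libraries with their replicate numbers, and bars are the mean and SD of 4. The first 12 genes are higher in every 4 d library, and Bmp4, Txnip, Ephb3 and Tmem204 are lower in every one.

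A second group that moved together was the PYHIN family, interferon-inducible proteins that bind nucleic acids and sit in a cluster on chromosome 1. Because 3 of its higher members have entries among the RefSeq promoter windows (GRCm38.p6, 300 bases around the start that RefSeq gives, which can differ from the gene ends printed below), these are printed 5′ to 3′ on the gene strand, with matches to the core of the interferon-stimulated response element (GAAA, any 2 bases, GAAA), on either strand, in capitals.
Ifi205, chr1:174031706-174032005, minus strand: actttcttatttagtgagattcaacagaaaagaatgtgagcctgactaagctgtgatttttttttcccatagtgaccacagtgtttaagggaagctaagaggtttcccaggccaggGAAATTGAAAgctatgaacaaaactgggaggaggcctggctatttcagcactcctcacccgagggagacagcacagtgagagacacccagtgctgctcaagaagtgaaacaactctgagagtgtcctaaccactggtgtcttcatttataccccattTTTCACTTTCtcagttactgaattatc
Ifi207, chr1:173741760-173742059, minus strand: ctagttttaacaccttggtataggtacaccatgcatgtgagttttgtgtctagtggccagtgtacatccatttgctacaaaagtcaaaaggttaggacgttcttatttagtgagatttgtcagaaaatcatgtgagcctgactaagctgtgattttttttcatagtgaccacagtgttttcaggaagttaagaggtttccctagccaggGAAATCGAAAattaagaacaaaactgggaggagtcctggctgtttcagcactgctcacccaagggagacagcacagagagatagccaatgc
Ifi211, chr1:173912997-173913296, minus strand: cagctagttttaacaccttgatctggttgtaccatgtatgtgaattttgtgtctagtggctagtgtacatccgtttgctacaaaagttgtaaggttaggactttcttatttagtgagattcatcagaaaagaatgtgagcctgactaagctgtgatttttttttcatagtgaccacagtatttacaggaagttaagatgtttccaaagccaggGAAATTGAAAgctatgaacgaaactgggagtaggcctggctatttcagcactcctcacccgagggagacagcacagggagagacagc
The core occurred at least once in each of the 3 windows, with 2 matches in Ifi205, and it occurs in 3.44% of 32851 mouse promoter windows of the same length. The 3 windows share runs of up to 31 bases, and those of Ifi205 and Ifi211 of up to 45, so the windows are related in sequence and the matches are not independent. A match describes letters in a window and not a bound site.

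Ifi205 (chromosome 1, 174011998 to 174031810) was at 315, 326, 471 and 629 CPM in 4 d replicates 1 to 4, against 50.2, 82.3, 42.8 and 82.9 CPM in untreated replicates 1 to 4. It differed on the log2 scale by 2.75 ± 0.32 (adjusted p = 0.00171). Ifi207 (chromosome 1, 173723427 to 173741747) was at 116, 127, 252 and 220.5 CPM in 4 d replicates 1 to 4, against 23.3, 43.1, 18.2 and 32.2 CPM in untreated replicates 1 to 4. It differed by 2.62 ± 0.34 (adjusted p = 0.00244). Both were highest in 4 d replicates 3 and 4, the libraries with fewer mesothelial transcripts, and even the lower 4 d libraries lay above every untreated one. Ifi204 differed by 1.95 ± 0.34 (adjusted p = 0.00951) and Ifi211 by 1.69 ± 0.29 (adjusted p = 0.00951). Without 4 d replicates 3 and 4 these log2 differences were 2.34, 2.09, 1.63 and 1.18 for Ifi205, Ifi207, Ifi204 and Ifi211, and with the mesothelial covariate 2.54, 2.20, 1.77 and 1.48. Of 6 tested members 4 rose and 0 fell, where 2.48% of all genes tested rose, with a median of 1.82. All 4 calls held in each of the 8 fits that left out a library and with the covariate, while 2 held without both 4 d replicates 3 and 4. Ifi203 and Mndal stood at 1.31 ± 0.44 and 0.7 ± 0.31 and did not pass. Values within the family are uncertain, because reads of near-identical copies may be shared or dropped in counting.

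Most other interferon-response genes did not follow. Of 35 tested, 2 rose and 1 fell, where 2.48% of all genes tested rose and 0.824% fell. The median of the 35 was -0.19. Isg15, a ubiquitin-like protein and a standard marker of the response, was at 289, 398, 428 and 412 CPM in 4 d replicates 1 to 4, against 546, 384, 337 and 477 CPM in untreated replicates 1 to 4, with overlapping groups and a log2 difference of -0.19 ± 0.21 (adjusted p = 0.686). Oasl1, which restrains translation of Irf7, was at 30.6, 34.7, 46.3 and 41.1 CPM in 4 d replicates 1 to 4, against 17.6, 15.1, 9.99 and 9.46 CPM in untreated replicates 1 to 4 and differed by 1.56 ± 0.27 (adjusted p = 0.00951), with every 4 d library above every untreated one. Irf7, the transcription factor that amplifies interferon production, differed by 1.31 ± 0.26 (adjusted p = 0.0159) and lost its call without 4 d replicate 3 or untreated replicates 2, 3 or 4 (adjusted p up to 0.0565). Ifit3, which blocks foreign RNA, fell, with a log2 difference of -1.16 ± 0.26 (adjusted p = 0.0261), and lost its call without 4 d replicates 1 or 4 or untreated replicates 3 or 4 (adjusted p up to 0.0873), an uncertain value because reads may be shared with its near copy Ifit3b. None of 12 tested interferon-inducible GTPases passed, and their median was 0.04. Of the interferon-response list, the higher count was 1 without 4 d replicate 3 or untreated replicates 2, 3 or 4, 1 with the mesothelial covariate and 0 without both 4 d replicates 3 and 4, and the lower count was 0 without 4 d replicates 1 or 4 or untreated replicates 3 or 4, 1 with the mesothelial covariate and 0 without both 4 d replicates 3 and 4. In MHC class I presentation 2 of 19 rose, H2-K1 at 1.03 ± 0.25 and H2-D1 at 1.06 ± 0.26, with the count 0 without 4 d replicates 2, 3 or 4 or untreated replicates 1, 2, 3 or 4, 0 with the mesothelial covariate and 0 without both 4 d replicates 3 and 4, and reads of these related genes may also be shared.

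Chemokine genes were high in 4 d fibroblasts by level but varied between libraries. Ccl2, which attracts monocytes (chromosome 11, 82035571 to 82037453), was at 5127, 4333, 7922 and 5785 CPM in 4 d replicates 1 to 4, against 2156, 1035, 314 and 1267 CPM in untreated replicates 1 to 4. Every 4 d library stood above every untreated one, untreated replicate 1 was the highest of its group and untreated replicate 3 the lowest. The log2 difference was 2.28 ± 0.52 (adjusted p = 0.0278), and the call was lost without 4 d replicates 3 or 4 or untreated replicates 2, 3 or 4 (adjusted p up to 0.0852). All 26 tested inflammatory cytokines and chemokines had a positive log2 difference, with a median of 1.58, where 4676 of all 10067 genes tested were positive. Where 2.48% of all genes tested rose, 7 of the 26 rose, namely Lif, Ccl2, Ccl7, Cxcl2, Cxcl5, Cxcl10 and Saa3, while 0 fell. That count was 3 without 4 d replicate 1, 2 without 4 d replicate 4 or untreated replicate 4, 0 without 4 d replicate 3 or untreated replicates 2 or 3, 0 with the mesothelial covariate and 0 without both 4 d replicates 3 and 4. Cxcl5, a neutrophil chemokine, followed the split of the 4 d libraries, at 80.4, 49.6, 321 and 304 CPM in 4 d replicates 1 to 4, against 22.8, 19.04, 6.78 and 16.7 CPM in untreated replicates 1 to 4. Its log2 difference was 3.54 ± 0.78 (adjusted p = 0.0248), with 2.04 without 4 d replicates 3 and 4, where it did not pass. Cxcl5 lost its call without 4 d replicates 3 or 4 or untreated replicates 2, 3 or 4 (adjusted p up to 0.0937). Ccl2 and Ccl7 are related neighbours, and reads shared between them cannot be told apart here. Ccl7 stood at 2.41 ± 0.62, and at 1.80 without 4 d replicate 3, and lost its call without 4 d replicates 1, 3 or 4 or untreated replicates 2, 3 or 4 (adjusted p up to 0.151). Lif lost its call without 4 d replicates 1, 2, 3 or 4 or untreated replicates 2, 3 or 4 (adjusted p up to 0.152), Cxcl2 without 4 d replicates 1 or 3 or untreated replicates 2, 3 or 4 (adjusted p up to 0.0757) and Cxcl10 without 4 d replicates 3 or 4 or untreated replicates 2, 3 or 4 (adjusted p up to 0.0900). A strict form of the NF-kB motif (GGGA, any base, TTTCC, either strand) was found in the promoter window of 1 of the 4 higher members with an entry, Cxcl2. It was found in 0 of the 5 higher hyaluronan genes with an entry, and it occurs in 0.411% of all windows. Few windows hold this form and other forms were not searched, so its absence from so few windows says little.

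Genes of the NF-kB and interleukin-1 pathway included 8 that rose and 0 that fell among 29 tested, with a median of 0.79. Of all genes tested 2.48% rose, and this list was drawn up after values had been seen. Myd88, the adaptor of interleukin-1 and Toll-like receptors (chromosome 9, 119335934 to 119341411), was at 231, 236, 333 and 291 CPM in 4 d replicates 1 to 4, against 141, 98.6, 71.3 and 93.5 CPM in untreated replicates 1 to 4. In log2 terms it differed by 1.43 ± 0.26 (adjusted p = 0.0118). Tbk1, a kinase of the same network, was at 37.1, 34.7, 44.7 and 33.6 CPM in 4 d replicates 1 to 4, against 18.1, 15.1, 17.1 and 13.2 CPM in untreated replicates 1 to 4. It differed by 1.25 ± 0.21 (adjusted p = 0.00846). The groups did not overlap for either gene, and the 4 d libraries were close to each other for Tbk1. Nfkb1, which encodes the p105 precursor of the NF-kB subunit p50, differed by 1.93 ± 0.39 (adjusted p = 0.0166) and lost its call without 4 d replicate 3 or untreated replicates 2 or 4 (adjusted p up to 0.0585). The count was 5 without 4 d replicates 1 or 4, 4 without untreated replicate 2, 3 without 4 d replicate 3 or untreated replicate 3, 2 without untreated replicate 4, 2 with the mesothelial covariate and 0 without both 4 d replicates 3 and 4.

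In IL-6 family signalling 3 of 13 genes rose and 0 fell, where 2.48% of all genes tested rose, and the median of the 13 was 1.06. The count was 6 without untreated replicate 1, 1 without 4 d replicate 1 or untreated replicates 2, 3 or 4, 2 with the mesothelial covariate and 1 without both 4 d replicates 3 and 4. Osmr, the receptor chain for oncostatin M (chromosome 15, 6813577 to 6874969), was at 104, 79.4, 184 and 125 CPM in 4 d replicates 1 to 4, against 42.5, 33.04, 14.3 and 36.7 CPM in untreated replicates 1 to 4, with no overlap and a log2 difference of 1.97 ± 0.39 (adjusted p = 0.0154).

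Acute-phase genes had positive log2 differences in all 13 tested, with a median of 1.58, and 4 rose, namely Hp, Lcn2, Saa3 and Serpina3n. Over all genes tested, 4676 of 10067 were positive and 2.48% rose. Hp, the haemoglobin scavenger haptoglobin (chromosome 8, 109575128 to 109579172), was at 261, 355, 128 and 258 CPM in 4 d replicates 1 to 4, against 33.7, 33.04, 18.5 and 45.8 CPM in untreated replicates 1 to 4. Replicate 3 was the lowest of the 4 d libraries here and still stood above all untreated ones. Its log2 difference was 2.93 ± 0.55 (adjusted p = 0.0120), with 3.13 under the mesothelial covariate. The count of higher members was 2 without 4 d replicates 1 or 4 or untreated replicates 2 or 3, 1 without 4 d replicate 3 or untreated replicate 4, 1 with the mesothelial covariate and 1 without both 4 d replicates 3 and 4. Lcn2 lost its call without 4 d replicates 1, 3 or 4 or untreated replicates 2 or 4 (adjusted p up to 0.0811), Saa3 without 4 d replicates 1, 2, 3 or 4 or untreated replicates 1, 2, 3 or 4 (adjusted p up to 0.152) and Serpina3n without 4 d replicate 3 or untreated replicates 3 or 4 (adjusted p up to 0.0701).

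Matrix genes changed singly, with proteases, inhibitors and a crosslinking enzyme higher and fibrillar collagens without a call. Timp1, an inhibitor of metalloproteases (chromosome X, 20870166 to 20874735), was at 491, 412, 878 and 455 CPM in 4 d replicates 1 to 4, against 156, 91.8, 58.1 and 95.4 CPM in untreated replicates 1 to 4. On the log2 scale it differed by 2.48 ± 0.32 (adjusted p = 0.00244). Adamts4, a protease that cleaves aggrecan and versican (chromosome 1, 171250421 to 171260637), was at 105, 90.01, 194 and 105 CPM in 4 d replicates 1 to 4, against 23.8, 11.2, 4.64 and 15.1 CPM in untreated replicates 1 to 4. It differed by 3.19 ± 0.47 (adjusted p = 0.00483). Lox, which crosslinks collagen and elastin (chromosome 18, 52516067 to 52529867), was at 334, 498, 520.1 and 399.9 CPM in 4 d replicates 1 to 4, against 127, 211, 112 and 149.9 CPM in untreated replicates 1 to 4. It differed on the log2 scale by 1.55 ± 0.24 (adjusted p = 0.00658). In each of these 3 genes all 4 d libraries were above all untreated ones, and 4 d replicate 3 was the highest. Thbs1, the matricellular protein thrombospondin 1, was at 332, 359.7, 445 and 265 CPM in 4 d replicates 1 to 4, against 81.8, 96.9, 21.8 and 76.1 CPM in untreated replicates 1 to 4, with untreated replicate 3 far below the rest of its group, and differed by 2.35 ± 0.40 (adjusted p = 0.00951).

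Of 20 tested matrix proteases and inhibitors 4 rose and 0 fell, where 2.48% of all genes tested rose, and the median of the 20 was 0.28. The higher count was 2 without 4 d replicates 1 or 3 or untreated replicates 2, 3 or 4, 2 with the mesothelial covariate and 2 without both 4 d replicates 3 and 4. Adamts1, which encodes another secreted protease, rose at 1.38 ± 0.34 and lost its call without 4 d replicates 1, 2, 3 or 4 or untreated replicates 2, 3 or 4 (adjusted p up to 0.134). Of 19 collagens 1 rose, the basement membrane chain Col4a2 at 1.02 ± 0.25, which lost its call without 4 d replicates 1, 2 or 3 or untreated replicates 1, 2, 3 or 4 (adjusted p up to 0.142). The fibrillar collagens Col1a1 and Col3a1 stood at -0.19 ± 0.37 and 0.16 ± 0.49, and 0 of 17 elastic fibre genes passed, with a median of 0.34. Among 10 small leucine-rich proteoglycans Dpt stood at 1.16 ± 0.30 and Fmod at -1.71 ± 0.41, calls that were lost without 4 d replicates 1, 3 or 4 or untreated replicates 1, 2, 3 or 4 (adjusted p up to 0.161) for Dpt and without 4 d replicates 3 or 4 or untreated replicates 1, 2, 3 or 4 (adjusted p up to 0.103) for Fmod. Col4a2, Dpt and Fmod also did not pass with the mesothelial covariate or without both 4 d replicates 3 and 4.

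**Figure D4:**
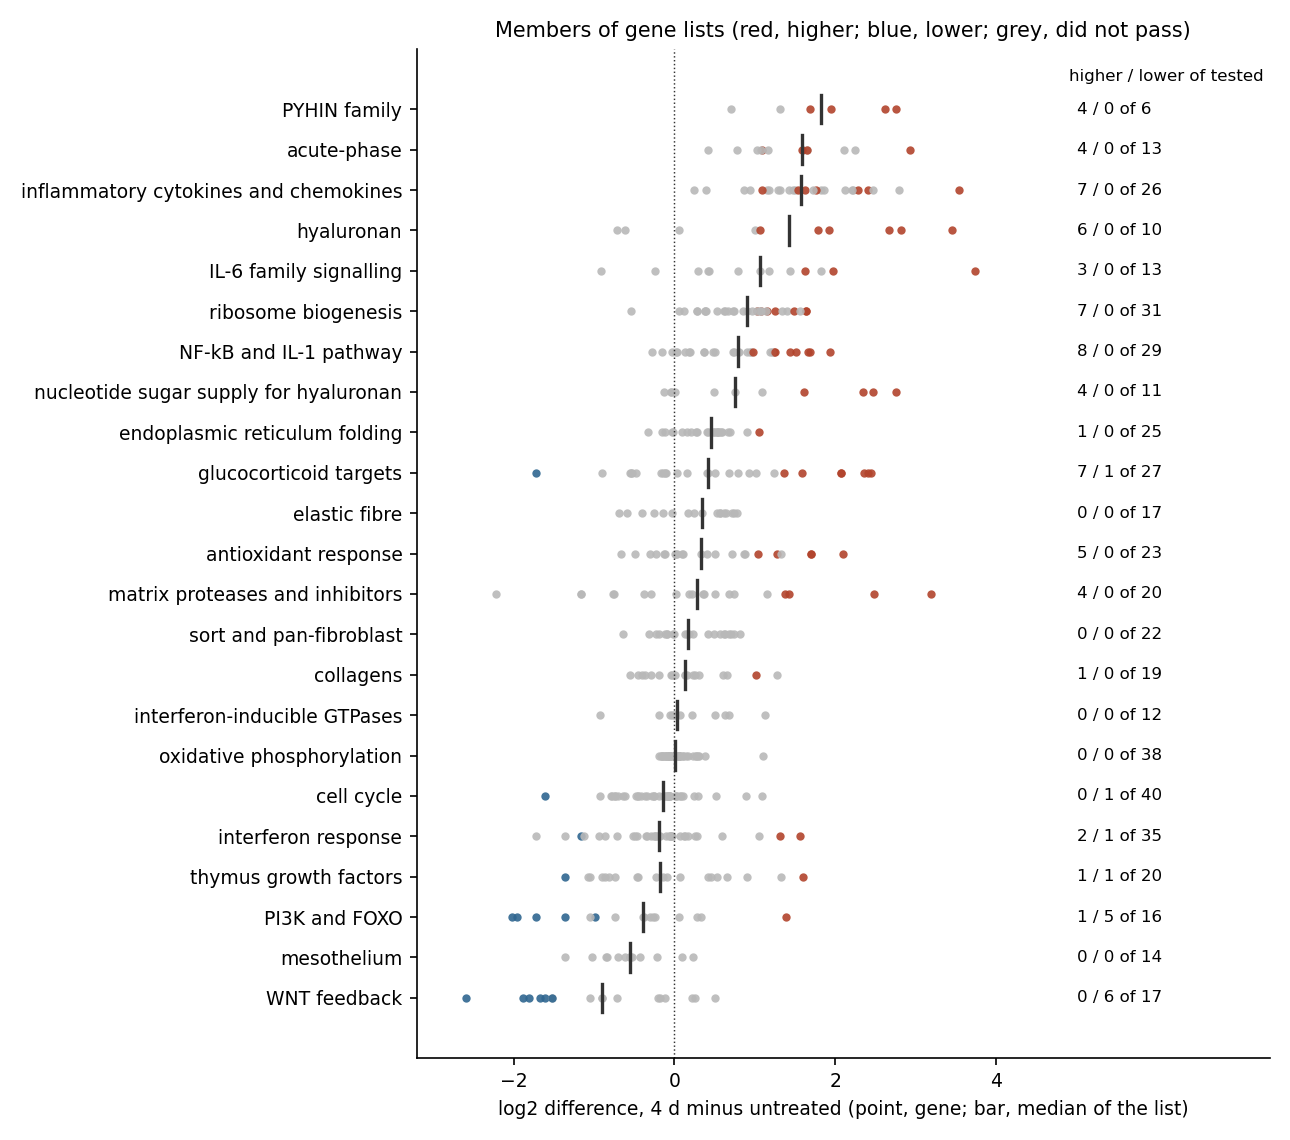
Log2 differences (4 d minus untreated) of the tested members of 23 gene lists, with red points higher, blue points lower and grey points not past the threshold. Black bars are list medians, and the text at the right gives how many members rose and fell of how many tested. The PYHIN family has 4 of 6 higher and the WNT feedback list 6 of 17 lower.

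Genes known as glucocorticoid targets went both ways 4 d after the drug. Fkbp5 and Tsc22d3, which are standard direct targets, stood at 0.16 ± 0.45 and -0.12 ± 0.33 and did not pass, nor did Per1 at 0.4 ± 0.37 or Nr3c1, the receptor gene, at -0.54 ± 0.23. Glul, which encodes glutamine synthetase (chromosome 1, 153899944 to 153909723), was at 22.6, 36.1, 51.7 and 23.7 CPM in 4 d replicates 1 to 4, against 7.25, 11.2, 3.92 and 4.92 CPM in untreated replicates 1 to 4. It differed by 2.36 ± 0.39 (adjusted p = 0.00846) with no overlap. Ddit4, an inhibitor of mTOR signalling (chromosome 10, 59949669 to 59951834), was at 12.7, 16.3, 12.3 and 13.7 CPM in 4 d replicates 1 to 4, against 43.5, 47.04, 37.8 and 52.98 CPM in untreated replicates 1 to 4 and fell, with a log2 difference of -1.71 ± 0.27 (adjusted p = 0.00722). All 4 d libraries of Ddit4 were low and close together. Of 27 tested, 7 rose (Sgk1, Errfi1, Mt1, Mt2, Cdkn1a, Glul and Lcn2) and 1, Ddit4, fell, with a median of 0.42. Over all genes tested 2.48% rose and 0.824% fell. The higher count was 4 without 4 d replicate 4 or untreated replicate 3, 3 without 4 d replicate 3 or untreated replicate 2, 1 without untreated replicate 4, 2 with the mesothelial covariate and 1 without both 4 d replicates 3 and 4. Sgk1 lost its call without untreated replicates 2, 3 or 4 (adjusted p up to 0.0650), Errfi1 without 4 d replicates 3 or 4 or untreated replicates 3 or 4 (adjusted p up to 0.0821) and Cdkn1a without 4 d replicates 2 or 3 or untreated replicates 2, 3 or 4 (adjusted p up to 0.0792).

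The metallothioneins Mt1 and Mt2, which bind zinc and copper and lie side by side, were the most abundant of these. Their promoter windows, on the plus strand, are shown because metals and glucocorticoids both act on this locus in mouse. Capitals mark the metal response element cores TGCACNC and TGCGCNC and the glucocorticoid response element (GNACA, any 3 bases, TGTNC), each on either strand.
Mt1, chr8:94178839-94179138, plus strand: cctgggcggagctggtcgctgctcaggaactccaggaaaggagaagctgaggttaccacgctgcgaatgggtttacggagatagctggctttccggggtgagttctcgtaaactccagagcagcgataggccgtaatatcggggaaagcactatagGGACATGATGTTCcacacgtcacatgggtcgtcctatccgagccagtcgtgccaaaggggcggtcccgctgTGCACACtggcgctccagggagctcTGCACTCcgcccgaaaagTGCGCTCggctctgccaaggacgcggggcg
Mt2, chr8:94172368-94172667, plus strand: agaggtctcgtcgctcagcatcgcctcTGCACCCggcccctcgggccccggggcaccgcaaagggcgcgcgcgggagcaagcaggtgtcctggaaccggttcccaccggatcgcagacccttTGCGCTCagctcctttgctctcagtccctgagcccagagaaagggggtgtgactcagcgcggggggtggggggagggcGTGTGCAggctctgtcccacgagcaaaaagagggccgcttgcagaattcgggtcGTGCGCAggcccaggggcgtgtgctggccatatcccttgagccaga
Mt1 has 3 metal cores and 1 glucocorticoid element in its window and Mt2 has 4 metal cores, and no marked letters belong to 2 motifs. The share of the 32851 windows with each of these motifs is 12.6% for TGCACNC, 15.4% for TGCGCNC and 0.475% for the glucocorticoid element. Mt2 was at 7346, 8275, 12412 and 12402 CPM in 4 d replicates 1 to 4, against 3463, 2027, 419.8 and 1708 CPM in untreated replicates 1 to 4. In log2 terms it differed by 2.41 ± 0.48 (adjusted p = 0.0154), and its call was lost without untreated replicate 4 (adjusted p up to 0.0585). Mt1 was at 4552, 5713, 8142 and 9751 CPM in 4 d replicates 1 to 4, against 2949.5, 1743, 467 and 1516 CPM in untreated replicates 1 to 4. It differed by 2.08 ± 0.45 (adjusted p = 0.0239), and its call was lost without 4 d replicates 3 or 4 or untreated replicates 2 or 4 (adjusted p up to 0.0792). The groups did not overlap for either gene, and untreated replicate 3 held the lowest level by a wide margin. Values of both are uncertain, because reads of near copies may be shared.

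A list of PI3-kinase and FOXO pathway genes held 5 that fell and 1 that rose among 16 tested. Over all genes tested 0.824% fell and 2.48% rose. The median of the list was -0.38, and it was drawn up after values had been seen. Txnip, an inhibitor of glucose uptake and thioredoxin (chromosome 3, 96557957 to 96561883), was at 127, 96.4, 104 and 148 CPM in 4 d replicates 1 to 4, against 439, 459, 619 and 405 CPM in untreated replicates 1 to 4. On the log2 scale it differed by -2.02 ± 0.31 (adjusted p = 0.00658). All 4 d libraries lay far below all untreated ones, and the value was -2.01 with the mesothelial covariate. Foxo1 itself stood at -0.98 ± 0.24, the pro-apoptotic gene Bmf at -1.96 ± 0.44 and Pik3ip1, a brake on PI3-kinase, at -1.35 ± 0.31, and Ddit4, described above, was the other that fell. Foxo1 lost its call without 4 d replicates 1, 2 or 3 or untreated replicates 1, 2, 3 or 4 (adjusted p up to 0.102), Bmf without 4 d replicates 1, 2 or 3 or untreated replicates 2, 3 or 4 (adjusted p up to 0.113) and Pik3ip1 without 4 d replicates 1, 2, 3 or 4 or untreated replicates 2, 3 or 4 (adjusted p up to 0.104). The insulin receptor substrate gene Irs2 rose, at 1.38 ± 0.32, and lost its call without 4 d replicates 2, 3 or 4 or untreated replicates 2, 3 or 4 (adjusted p up to 0.109). The lower count was 2 without 4 d replicates 1, 2 or 3 or untreated replicates 2, 3 or 4, 2 with the mesothelial covariate and 0 without both 4 d replicates 3 and 4.

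Antioxidant genes included 5 that rose and 0 that fell among 23 tested, where 2.48% of all genes tested rose. The median of the 23 was 0.33. Hmox1, the haem-degrading enzyme heme oxygenase 1 (chromosome 8, 75093621 to 75100589), was at 605, 681, 1009 and 1906 CPM in 4 d replicates 1 to 4, against 214, 355, 107 and 309 CPM in untreated replicates 1 to 4. Replicate 4 was the highest 4 d library, and the groups did not overlap. The log2 difference was 2.09 ± 0.40 (adjusted p = 0.0132), and it was 1.41 without 4 d replicates 3 and 4, where it did not pass. Gclc and Gclm, the subunits of the enzyme that starts glutathione synthesis, stood at 1.28 ± 0.26 and 1.04 ± 0.24. Gclc lost its call without untreated replicates 2, 3 or 4 (adjusted p up to 0.0573), and Gclm without 4 d replicates 1, 3 or 4 or untreated replicates 2, 3 or 4 (adjusted p up to 0.105). The count was 3 without 4 d replicates 3 or 4, 2 without untreated replicate 2, 1 without untreated replicates 3 or 4, 3 with the mesothelial covariate and 0 without both 4 d replicates 3 and 4.

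Ribosome biogenesis genes, which assemble ribosomes in the nucleolus, leaned upward, with 30 of 31 log2 differences positive and a median of 0.91. Over all genes tested 4676 of 10067 were positive. Of the 31 genes 7 rose and 0 fell, where 2.48% of all genes tested rose. Ddx21, a nucleolar RNA helicase (chromosome 10, 62580251 to 62602281), was at 40.7, 43.9, 64.7 and 52.3 CPM in 4 d replicates 1 to 4, against 19.7, 20.7, 10.7 and 14.4 CPM in untreated replicates 1 to 4. It differed by 1.64 ± 0.30 (adjusted p = 0.0118). Gar1, a protein of the particles that pseudouridylate ribosomal RNA, was at 59.3, 59.2, 64.01 and 71.003 CPM in 4 d replicates 1 to 4, against 33.7, 26.9, 23.9 and 21.95 CPM in untreated replicates 1 to 4. It differed on the log2 scale by 1.25 ± 0.20 (adjusted p = 0.00723). Neither gene showed overlap between the groups. The count was 4 without untreated replicate 2, 2 without untreated replicates 3 or 4, 4 with the mesothelial covariate and 0 without both 4 d replicates 3 and 4. In 40 tested cell cycle genes 0 rose and 1, Ccnd1, fell, with Mki67 at -0.45 ± 0.43 and Top2a at -0.26 ± 0.40, both not past the threshold. Of 38 oxidative phosphorylation genes 0 passed, and their median was 0.01. In glycolysis and hypoxia 3 of 18 rose, Slc2a1, Hk2 and Vegfa, with a median of -0.02, and the count was 2 with the mesothelial covariate and 0 without both 4 d replicates 3 and 4.

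WNT feedback genes, which β-catenin switches on and which limit or report its signal, included 6 that fell and 0 that rose among 17 tested, with a median of -0.90, where 0.824% of all genes tested fell. This list was also drawn up after values had been seen. Ephb3, an ephrin receptor (chromosome 16, 21204755 to 21223305), was at 7.28, 8.86, 9.67 and 11.2 CPM in 4 d replicates 1 to 4, against 22.3, 36.4, 19.6 and 26.5 CPM in untreated replicates 1 to 4. It differed by -1.52 ± 0.27 (adjusted p = 0.0107), with all 4 d libraries below all untreated ones. Axin2, the feedback scaffold of the pathway, was at 14.9, 9.92, 8.67 and 8.72 CPM in 4 d replicates 1 to 4, against 43.5, 28.6, 31.7 and 33.3 CPM in untreated replicates 1 to 4. In log2 terms it differed by -1.67 ± 0.38 (adjusted p = 0.0272). The call of Axin2 was lost without 4 d replicates 2, 3 or 4 or untreated replicates 2, 3 or 4 (adjusted p up to 0.0928). Nkd2, Nkd1, Tnfrsf19 and Ccnd1 were the other 4 that fell, at -1.88 ± 0.39, -1.8 ± 0.44, -2.6 ± 0.63 and -1.6 ± 0.33. Nkd2 lost its call without 4 d replicates 1 or 2 or untreated replicates 2 or 4 (adjusted p up to 0.0639), and Nkd1 without 4 d replicates 1, 2, 3 or 4 or untreated replicate 1 (adjusted p up to 0.131). For Tnfrsf19 the call was lost without 4 d replicates 1, 2 or 4 or untreated replicates 1, 2 or 4 (adjusted p up to 0.123), with a difference of -3.92 without 4 d replicate 3, and for Ccnd1 without 4 d replicates 2 or 3 or untreated replicates 2 or 4 (adjusted p up to 0.0725). The lower count was 3 without 4 d replicates 1 or 4, 2 without untreated replicate 2, 1 without 4 d replicate 2 or untreated replicate 4, 5 with the mesothelial covariate and 2 without both 4 d replicates 3 and 4.

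Factors that act on the thymic epithelium and on thymocytes changed singly. Bmp4, a growth factor for the epithelium (chromosome 14, 46383520 to 46390669), was at 24.4, 26.2, 32.7 and 28.7 CPM in 4 d replicates 1 to 4, against 55.9, 96.9, 72.1 and 63.96 CPM in untreated replicates 1 to 4. All 4 d libraries lay below all untreated ones and close to each other. The log2 difference was -1.37 ± 0.26 (adjusted p = 0.0132), with -1.45 under the mesothelial covariate. Vegfa, the vascular growth factor, rose at 1.6 ± 0.32 and lost its call without 4 d replicate 3 or untreated replicates 2 or 3 (adjusted p up to 0.0586), with the mesothelial covariate and without both 4 d replicates 3 and 4. Of 20 tested, 1 rose and 1 fell, where 2.48% of all genes tested rose and 0.824% fell. The median of the 20 was -0.18. The lower count was 3 without untreated replicate 1, 2 without 4 d replicate 3, 3 with the mesothelial covariate and 0 without both 4 d replicates 3 and 4. Wnt5a, Fgf7, Fgf10, Kitl, Igf1 and Cxcl12 stood at -1.05 ± 0.33, 0.52 ± 0.43, -0.45 ± 0.79, 0.07 ± 0.45, 0.41 ± 0.36 and 1.32 ± 0.44, and none of them passed. Fst, which binds activins and BMPs, rose at 1.64 ± 0.40 and lost its call without 4 d replicates 3 or 4 or untreated replicates 1, 2, 3 or 4 (adjusted p up to 0.134).

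The series concerns type 2 immunity, and of 10 tested genes of that kind 2 rose and 0 fell, where 2.48% of all genes tested rose. The median of the 10 was 0.50. Il4ra, which encodes the common chain of the IL-4 and IL-13 receptors (chromosome 7, 125552120 to 125579474), was at 19.3, 17.4, 48.3 and 26.2 CPM in 4 d replicates 1 to 4, against 9.32, 5.5996, 2.497 and 8.33 CPM in untreated replicates 1 to 4. The groups did not overlap, and 4 d replicate 3 held the highest level. Its log2 difference was 2.13 ± 0.41 (adjusted p = 0.0132), with 1.57 under the mesothelial covariate and 1.55 without 4 d replicates 3 and 4, where it did not pass (adjusted p = 0.122). The list's count was 1 without 4 d replicates 1, 3 or 4 or untreated replicates 1, 2, 3 or 4, 1 with the mesothelial covariate and 0 without both 4 d replicates 3 and 4. Il33, an alarmin that starts type 2 responses, was at 214, 174, 399.7 and 318 CPM in 4 d replicates 1 to 4, against 250.2, 259, 254 and 209 CPM in untreated replicates 1 to 4, with overlapping groups and a difference of 0.18 ± 0.38 (adjusted p = 0.849). Ccl8, which encodes a chemokine, rose on few counts, 62 at 4 d against 7 in untreated libraries, at 3.04 ± 0.77, and lost its call without 4 d replicates 1, 3 or 4 or untreated replicates 1, 2, 3 or 4 (adjusted p up to 0.166), while its difference was 3.67 without untreated replicate 4. In retinoic acid genes 2 of 16 rose, beside the same 2.48% over all genes tested, and the median of the 16 was 0.03. The count was 1 without 4 d replicates 1, 3 or 4 or untreated replicates 1, 2, 3 or 4, 1 with the mesothelial covariate and 0 without both 4 d replicates 3 and 4. One was Rdh10, which makes the precursor retinaldehyde, at 54.2, 51.4, 57.01 and 34.9 CPM in 4 d replicates 1 to 4, against 13.98, 19.6, 17.5 and 19.7 CPM in untreated replicates 1 to 4. It differed by 1.5 ± 0.28 (adjusted p = 0.0132). The other, Cyp26b1, which degrades retinoic acid, stood at 2.98 ± 0.75 and lost its call without 4 d replicates 1, 3 or 4 or untreated replicates 1, 2, 3 or 4 (adjusted p up to 0.161).

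Among called genes with a mean count of at least 10 and no overlap between libraries, those with the largest differences lay mostly outside these groups. Below that count, Ampd1 differed by 4.70 ± 0.68, on 66 counts at 4 d and 2 in untreated libraries. Fgf23, a hormone known from bone that lowers blood phosphate (chromosome 6, 127072902 to 127081408), was at 32.7, 15.6, 46.3 and 13.7 CPM in 4 d replicates 1 to 4, against 2.59, 0.560, 0.357 and 1.51 CPM in untreated replicates 1 to 4. On the log2 scale it differed by 4.46 ± 0.57 (adjusted p = 0.00244) on 284 counts at 4 d and 11 in untreated libraries. Nptx2, a neuronal pentraxin (chromosome 5, 144545902 to 144557478), was at 12.7, 21.6, 40.3 and 12.5 CPM in 4 d replicates 1 to 4, against 3.11, 0.560, 0.357 and 0.378 CPM in untreated replicates 1 to 4. It differed by 4.41 ± 0.81 (adjusted p = 0.0120). Runx1, a transcription factor of blood formation that fibroblasts also use (chromosome 16, 92601466 to 92826149), was at 24.4, 21.6, 36.7 and 33.6 CPM in 4 d replicates 1 to 4, against 3.63, 5.04, 1.43 and 4.54 CPM in untreated replicates 1 to 4. It differed on the log2 scale by 3.0 ± 0.34 (adjusted p = 0.00171). All 4 d libraries were above all untreated ones in Fgf23, Nptx2 and Runx1, and no untreated library exceeded 5.04 CPM. Without untreated replicate 1, the highest untreated library for Nptx2, its difference was 5.57. Eid3, an inhibitor of a histone acetyltransferase, differed by 3.39 ± 0.45 (adjusted p = 0.00293), and Slc6a12, a transporter of betaine, by 3.17 ± 0.48 (adjusted p = 0.00617). Stab1, a scavenger receptor, differed by 2.77 ± 0.43 (adjusted p = 0.00658), on 67 counts at 4 d and 9 in untreated libraries.

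Of the 10 named genes that fell most, Ecrg4 and Tmem204 kept their calls in all 8 fits that left out a library. Ecrg4, which encodes a secreted peptide precursor, was at 25.8, 37.9, 18.003 and 24.9 CPM in 4 d replicates 1 to 4, against 81.3, 148, 149.8 and 114 CPM in untreated replicates 1 to 4. It differed by -2.2 ± 0.27 (adjusted p = 0.00206). Tmem204, a membrane protein (chromosome 17, 25057702 to 25083591), was at 8.73, 10.3, 15.002 and 13.7 CPM in 4 d replicates 1 to 4, against 47.1, 82.3, 64.6 and 48.4 CPM in untreated replicates 1 to 4. In log2 terms it differed by -2.36 ± 0.39 (adjusted p = 0.00846). Both were lower in every 4 d library than in every untreated one. Cpxm2, a secreted carboxypeptidase-like protein, was at 4.73, 5.67, 30.3 and 13.7 CPM in 4 d replicates 1 to 4, against 111, 101, 51.4 and 66.2 CPM in untreated replicates 1 to 4. It differed by -2.58 ± 0.53 (adjusted p = 0.0178) and lost its call without untreated replicate 2 (adjusted p up to 0.0508). It stood at -3.83 with the mesothelial covariate and at -3.56 without 4 d replicate 3. Its 4 d replicates 3 and 4 were the higher ones. Rmrp, the RNA of a ribonuclease that processes ribosomal and mitochondrial RNA, had 3 counts in the 4 d libraries together and 86 in the untreated ones, most of them in untreated replicate 3, a ratio of 0.0341 with a 95% exact binomial interval of 0.00691 to 0.103, which covers counting error only. Its call was lost without 4 d replicates 1, 2, 3 or 4 or untreated replicate 3 (adjusted p up to 0.0886), and its fitted difference of -4.57 ± 0.99 was -3.47 without untreated replicate 3 and -5.36 without 4 d replicate 3. The assay counts polyadenylated 3′ ends, and whether the few Rmrp counts come from this RNA or from an overlapping gene was not tested.

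Calls in the fibroblast identity lists stand beside 2.48% higher and 0.824% lower over all genes tested. In lists this small, 0 calls do not show that the genes were unchanged. Of 22 sort and pan-fibroblast genes 0 passed, with log2 differences between -0.64 and 0.82 and a median of 0.17. In 19 adventitial and capsular genes 2 rose, Dpt and Ackr3, with a median of 0.46, and the count was 1 without 4 d replicates 1, 3 or 4 or untreated replicates 1, 2, 3 or 4, 1 with the mesothelial covariate and 0 without both 4 d replicates 3 and 4. Ackr3, a receptor that removes the chemokine Cxcl12 (chromosome 1, 90203980 to 90216751), was at 588, 696, 968 and 849.5 CPM in 4 d replicates 1 to 4, against 330.4, 382, 212 and 359 CPM in untreated replicates 1 to 4. On the log2 scale it differed by 1.27 ± 0.24 (adjusted p = 0.0120) with no overlap. Of 12 medullary fibroblast genes 0 passed, with a median of -0.31, and with the mesothelial covariate 3 of them were called lower, as were 2 without 4 d replicates 3 and 4.

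Levels at 18 h place the 4 d values in time. Both comparisons share the untreated libraries, so they are set side by side, and only the contrast of 4 d with 18 h, taken from the same fit, is a test of the difference. Isg15 stood at 3.77 ± 0.25 at 18 h against untreated and at -0.19 ± 0.21 at 4 d, and 4 d differed from 18 h by -3.96 ± 0.25 (adjusted p = 5.4e-07). In Oasl1 that contrast was -2.99 ± 0.27 (adjusted p = 1.3e-05), and in Lcn2 -5.41 ± 0.42 (adjusted p = 4.8e-06). Interferon-response genes had 31 of 35 higher at 18 h, where 7.85% of all genes tested were higher and 4.69% lower, and 2 of 35 higher at 4 d. Markers of other cell types also rose at 18 h, with 5 of 8 endothelial, 6 of 12 macrophage and 4 of 10 pericyte and smooth muscle markers higher, and their part in the 18 h values was not tested. Pecam1 stood at 4.73 ± 0.75 at 18 h and Ptprc at 2.34 ± 0.68 (adjusted p = 0.00130 and 0.0369). Between 4 d and 18 h, Pecam1 differed by -2.94 ± 0.66 (adjusted p = 0.0173) and Ptprc by -2.81 ± 0.71 (adjusted p = 0.0337). Ddit4 was at 1.51 ± 0.27 at 18 h and -1.71 ± 0.27 at 4 d, with a contrast of -3.23 ± 0.29 (adjusted p = 1.3e-05). Lox was one of the genes higher at 4 d than at 18 h, by 1.124 ± 0.26 (adjusted p = 0.0218). For hyaluronan and PYHIN genes the contrast between the times did not pass, at -0.14 ± 0.41 for Has2, 0.06 ± 0.48 for Ptx3, 0.30 ± 0.40 for Tnfaip6, -0.04 ± 0.32 for Ifi205 and -0.45 ± 0.33 for Ifi207. A contrast that did not pass does not show equal levels. In all, 555 genes (5.51% of those tested) differed between 4 d and 18 h.

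**Figure D5:**
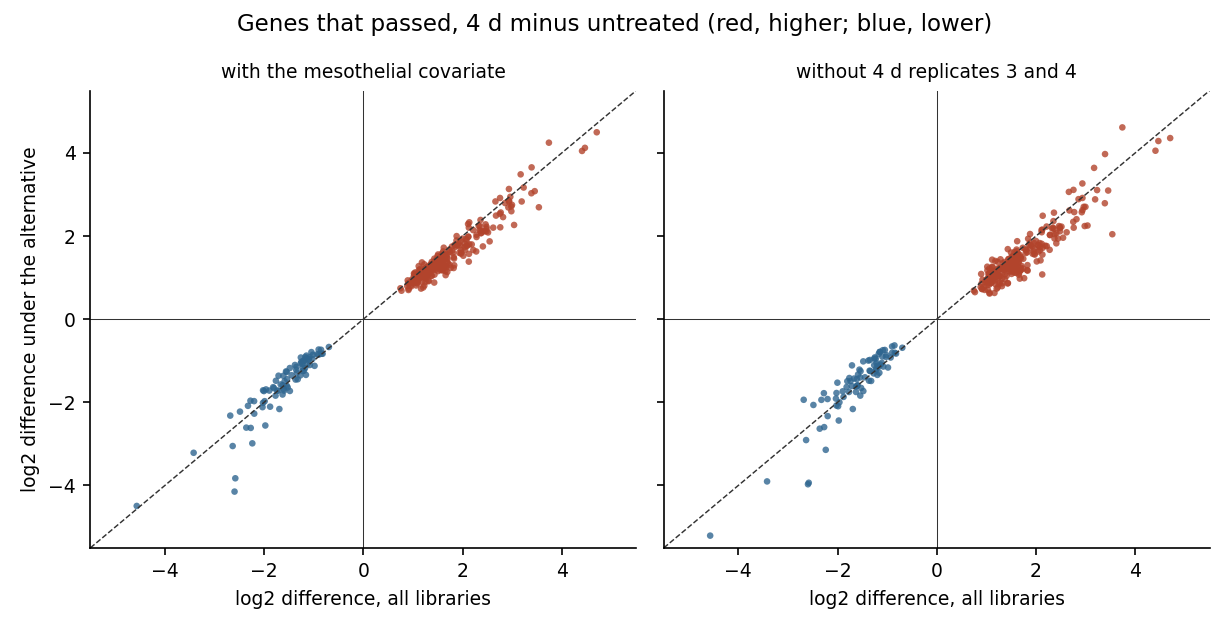
Log2 differences (4 d minus untreated) of the 333 genes that passed, from the fit of all libraries (horizontal axes) and from the fit with the mesothelial covariate (left) or without 4 d replicates 3 and 4 (right, 332 genes). Red genes are higher at 4 d and blue genes lower, and the dashed line marks equal values. No gene crosses 0 in either panel, and for most of these genes the groups did not overlap.

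Adding the mesothelial covariate changed the size of many differences and the sign of none of the 333. Cxcl5 stood at 2.69 with it, Dpt at 0.74, Il4ra at 1.57 and Serpina3n at 1.16, all smaller than in the fit of all libraries. Tnfrsf19 stood at -4.15 and Cpxm2 at -3.83, both larger in size. Whether mesothelial cells, their RNA or another difference between the 2 pairs of 4 d libraries contributed to these shifts was not tested.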

How the data were processed

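Bulk MARS-seq was deposited as raw counts per gene, whole numbers in a table of 12430 genes. Their processing notes name STAR 2.5.2b, HTSeq, cutadapt, bcl2fastq and DESeq2, per the submitters, and the build mm10. How molecular identifiers and strand were handled is not stated there, so overlapping and antisense genes cannot be told apart. The authors' deposited comparisons, and the 22 per-sample columns of their normalized or transformed values, were not used.

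Genes passing filterByExpr (minimum count 10) were fitted over all 11 libraries by group with edgeR 4.0.16 (R 4.3.3): TMM scaling, quasi-likelihood test, Benjamini-Hochberg adjustment, threshold 0.05. Errors beside log2 differences are standard errors. Marker sums were compared by exact permutation tests. In simulated data for the 4 d contrast over 9700 genes, 93% of 4-fold and 23% of 2-fold changes were recovered, and 7.2% of calls were false. The simulated libraries varied independently, with a spread set by level alone and no split of the 4 d libraries. These shares therefore do not carry over to the real calls. Alternatives included DESeq2 1.42.0 and limma 3.58.1.

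The named genes are the 10 highest and 10 lowest called log2 differences (mean count at least 10, groups apart, ordinary symbol), up to 4 called members per list by adjusted p, and a set of sort, marker and thymus factor genes whatever their result. Other genes were named after their values were seen, and a few results are not reported here. The members, the 57 lists and the tests were chosen with earlier results of these data known, and 6 lists were added after values were seen. No 2 replicates agreed within sampling noise (chi-square per degree of freedom at least 4.79 over 12 pairs).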

Additional observations from a re-analysis of the deposited data

Results flagged for a closer look

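Among 214 groups of 4 values examined, 9 (4.21%) held a library far from the other 3, and chance gives about 1 in 20. In untreated fibroblasts Nptx2 was at 3.11 CPM in replicate 1, against 0.357 to 0.560 CPM in the others. Ngfr was at 28.0 CPM in untreated replicate 4, against 11.1 to 12.9 CPM in the others, and Fst at 75.0 CPM in untreated replicate 2, against 45.4 to 49.2 CPM. Untreated replicate 3 was low for Col4a2, at 176 CPM against 272 to 293 CPM, for Thbs1, at 21.8 CPM against 76.1 to 96.9 CPM, and for Adamts1, at 70.3 CPM against 167 to 176 CPM.

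At 4 d, replicate 3 was high for Ugdh, at 1427 CPM against 788 to 829 CPM in the others, and for Gfpt2, at 2397 CPM against 1330.4 to 1421 CPM. The summed erythroid markers reached 7.47 CPM in 4 d replicate 4, against 1.09 to 1.77 CPM.

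Among the 10 highest and 10 lowest genes named by the rule above, 3 differed between 4 d and 18 h by edgeR's quasi-likelihood test. Eid3 was higher at 4 d by 2.32 on the log2 scale (adjusted p = 0.0107). Rem1, a small GTPase, differed by -3.50 (adjusted p = 0.00617) and Rmrp by -4.17 (adjusted p = 0.0382), on 3 counts at 4 d and 33 at 18 h, a ratio of 0.0466 with a counting interval of 0.00914 to 0.149. Against untreated libraries, the call of Rem1 was lost without 4 d replicates 1, 2 or 3 or untreated replicates 2, 3 or 4 (adjusted p up to 0.133).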

How the results depend on the processing

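All 333 calls kept their direction in every alternative in which they were tested, while their number moved. The groups of most of them did not overlap, so leaving libraries out could hardly reverse a direction. Against 250 higher and 83 lower calls, there were 394 and 144 in a fit of the 8 libraries compared, 481 and 209 by DESeq2's Wald test, 104 higher with the mesothelial covariate, and from 86 to 324 higher and 27 to 113 lower when 1 library was left out. Alternatives added after seeing the data gave 29 higher and 18 lower without 4 d replicates 3 and 4, and 42 and 15 without untreated replicates 1 and 3. With the replicate block the counts were 46 and 14 by the numbers in the titles and 73 and 18 by those in the descriptions. The numbers do not pair the libraries: correlations of deviations between same-numbered libraries ran from -0.34 to 0.14, and 0 of 4 correlated best with their own number. Other scaling, other filters, limma-voom and leaving out the 2 shallowest libraries kept both counts within 1.5 times. The cause of these shifts was not tested. Of 97 named calls, 43 were lost with the covariate, 76 without 4 d replicates 3 and 4, 10 by limma-voom and 0 by DESeq2. The 4 d replicate 4 total of 916281 counts limits genes of low level.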

Other observations

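Several genes outside the groups above, chosen after their values were seen, kept their calls in all 8 fits that left out a library. Procr, the endothelial protein C receptor, was at 338, 443, 325 and 458 CPM at 4 d, against 92.2, 101, 61.7 and 103 CPM in untreated libraries, a log2 difference of 2.13 ± 0.25 (adjusted p = 0.00171) that was 2.20 with the mesothelial covariate. Adora2b, a receptor for adenosine, was at 43.7, 37.6, 77.7 and 42.4 CPM at 4 d, against 9.32, 7.84, 6.06 and 12.9 CPM in untreated libraries, a difference of 2.48 ± 0.32 (adjusted p = 0.00244). Sphk1, which makes sphingosine 1-phosphate, differed by 2.14 ± 0.36 (adjusted p = 0.00880), and Pla1a, a phospholipase that releases lysophosphatidylserine, by 1.83 ± 0.34 (adjusted p = 0.0120). Mdk, the heparin-binding growth factor midkine, fell, at 93.1, 94.97, 109 and 179 CPM at 4 d, against 303, 312, 435 and 325 CPM in untreated libraries, a difference of -1.54 ± 0.24 (adjusted p = 0.00658). Cirbp, the cold-inducible RNA-binding protein, was at 26.9, 23.03, 23.7 and 26.2 CPM at 4 d, against 49.7, 53.2, 66.3 and 48.4 CPM in untreated libraries, a difference of -1.13 ± 0.19 (adjusted p = 0.00951). In these 6 genes the 4 d and untreated libraries did not overlap.

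Counts in the other lists stand beside 2.48% higher and 0.824% lower over all genes tested. Among 24 immediate early genes 2 rose, Fosl2 and Nr4a2, with a median of 0.30, and the count was 1 without 4 d replicates 1, 3 or 4 or untreated replicate 1, 0 without 4 d replicate 2 or untreated replicates 3 or 4, 1 with the mesothelial covariate and 0 without both 4 d replicates 3 and 4. Of 24 p53 and growth arrest genes 2 rose, Cdkn1a and Mdm2, and the count was 1 without 4 d replicates 1 or 4, 0 without 4 d replicates 2 or 3 or untreated replicates 2, 3 or 4, 0 with the mesothelial covariate and 0 without both 4 d replicates 3 and 4. Fosl2 lost its call without 4 d replicates 1, 2, 3 or 4 or untreated replicates 1, 3 or 4 (adjusted p up to 0.152), Nr4a2 without 4 d replicate 2 or untreated replicates 2, 3 or 4 (adjusted p up to 0.0757) and Mdm2 without 4 d replicates 1, 2, 3 or 4 or untreated replicates 2, 3 or 4 (adjusted p up to 0.152). Of 16 heat shock, 14 complement, 18 adipogenesis, 9 IGF binding protein and 16 imprinted growth genes 0 passed in either direction. At the shares over all genes, 0 calls in lists of this size say little.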
